A study of Brassica napus with 2 samples.

Results

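The abundant cysteine proteinase CysP1 and the vacuolar-processing enzymes (VPE) of the *Brassica napus* seed were described from 9 of the 50366 unigenes of a seed transcriptome. A unigene is an assembled transcript group that stands for 1 gene or a piece of one. The cysteine proteinase comp43593_c1 and the VPE comp47009_c0 were taken by name, and every further unigene with an assigned *B. napus* gene was taken if its Swiss-Prot description read vacuolar-processing enzyme. Comp43593_c1 and comp47009_c0 were picked for their high level and with their difference between the lines known, so their levels and ratios are descriptions with no test. The 8 VPE unigenes were assigned to 7 genes and came from 5 assembly components, so the 9 unigenes are not 9 independent genes. Of the 9, 3 were assigned to genes on A chromosomes and 6 to genes on C chromosomes.

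The lines were Cy2B, which bears brown seeds (genotype yy), and Cy2Y, which bears yellow seeds (genotype YY). They are near-isogenic and descend from the repeated selfing of 1 heterozygous plant. Plants of both lines grew in the field, and RNA was taken from whole seeds 26 days after flowering. There was 1 library per line, so no difference has a replicate check, and every ratio compares these libraries and not the lines. Whole seeds hold coat, endosperm and embryo, and fewer cells of a type and less RNA per cell cannot be told apart.

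CysP1 belongs to the papain family, a group of thiol proteases that are made as inactive precursors, and is closest in Swiss-Prot to vignain, a protease with a C-terminal KDEL retention signal. Proteases of that type are known from plant tissues that break down their own contents, and in *B. napus* CysP1 has been placed in the inner integument of the seed coat. VPE are legumain-type proteases that cut after asparagine and activate other proteins in the vacuole. In *Arabidopsis*, βVPE is the seed enzyme that matures storage globulins and albumins, αVPE and γVPE act mainly in vegetative organs, and δVPE acts in the inner integument, where cells of the young seed coat die.

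The brown library held 23575395 reads and the yellow library 23236549 reads over all unigenes. Levels are RPKM (reads per kilobase, scaled to the library size), the unit in which unigenes of different length were compared. Ratios are yellow over brown, from read counts scaled to the library total, each with a 95% Clopper-Pearson interval that covers counting error only. A log2 ratio was taken after adding 1 read per library. A unigene with at least 20 reads in both libraries together was called when it passed a 2-fold difference, and 29239 unigenes had that many reads, all 9 members among them.

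The ratios of the members lay on both sides of 1. CysP1 and the leading δVPE had lower levels in yellow seeds, βVPE and αVPE had higher levels, and γVPE was nearly level. No member passed the 2-fold difference (0 of 9), which 6.44% of the 29239 unigenes did. Past a 1.5-fold difference were 3 of the 9 members, beside 17.7% of all unigenes. They were βVPE as 1 member higher in yellow seeds, beside 9.84% of all unigenes, and CysP1 and comp47009_c0 as 2 members lower, beside 7.88%. A 1.5-fold difference was less frequent at greater depth. Among the 8704 unigenes with at least 1000 reads, which include 7 members, 4.31% passed 1.5-fold, 2.47% upward and 1.84% downward, and the same 3 members did. The members were chosen with these ratios known, so nothing is read from that excess. The members' median log2 ratio was -0.12 and the VPE's was -0.05, while the median over all unigenes was -0.00.

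**Figure D1:**
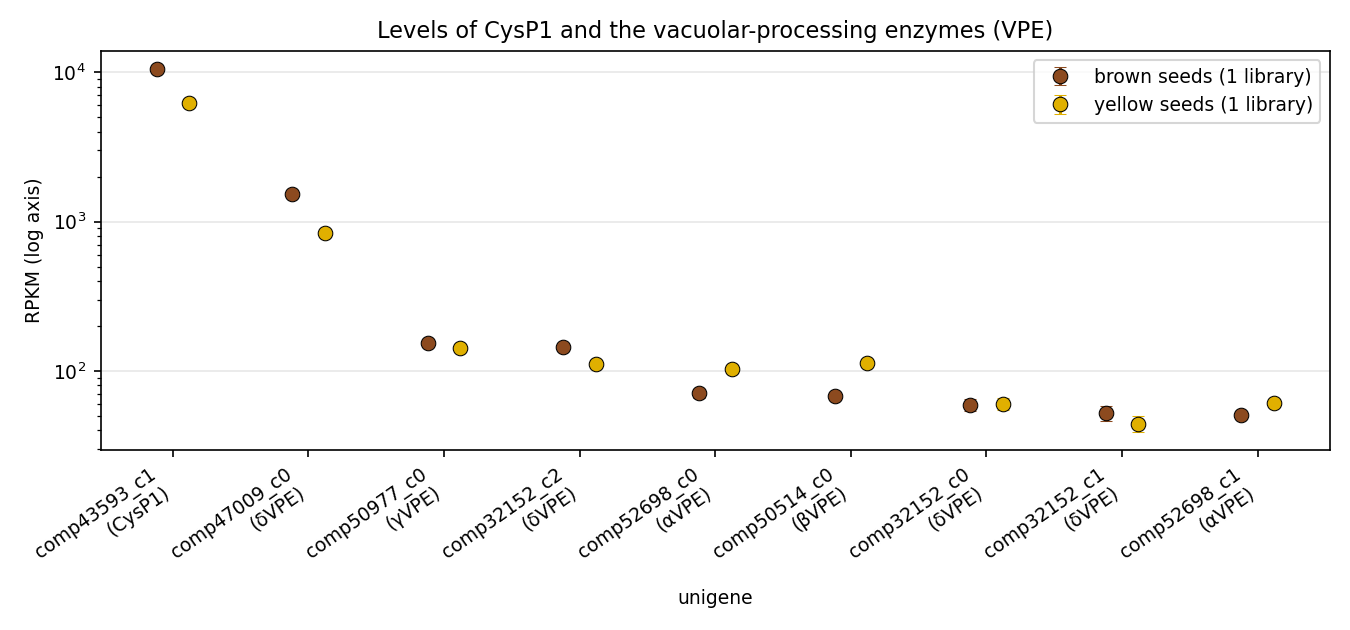
RPKM on a log axis of the 9 unigenes in brown and yellow seeds, 1 library each, with 95% intervals of counting error that are mostly narrower than the points. CysP1 (10484 and 6234 RPKM) and comp47009_c0 (1520 and 842 RPKM) stand above the other VPE in both libraries.

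CysP1 (comp43593_c1, 1241 bp) was assigned to GSBRNA2T00128547001 on chromosome C07, at 25413521 to 25415260 on the plus strand in the coordinates that the deposited table gives. It had 306854 reads in the brown and 179845 reads in the yellow library. Among all unigenes its RPKM ranked 1 in brown and 2 in yellow seeds. A single unigene, which may hold reads of more than 1 gene copy, thus took 1.30% (1.297 to 1.306) of the brown library and 0.774% (0.770 to 0.778) of the yellow library. The brown level was 1.68 times the yellow level (1.67 to 1.69), a log2 ratio of -0.75. Of the 8704 unigenes with at least 1000 reads, 0.793% had a log2 ratio at or below that of CysP1.

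Reads of CysP1-like genes were also found outside comp43593_c1. There were 3 short unigenes without an assigned gene whose best nucleotide entry was the CysP1 gene of *Brassica oleracea* or *Brassica rapa*. They were singled out after their values were seen. Comp26909_c0, matched to the *B. oleracea* gene, had 116 reads in the brown and 54 reads in the yellow library, a ratio of 0.472 (0.335 to 0.658). Comp21921_c0, matched to the same entry, had 89 and 28 reads, a ratio of 0.319 (0.201 to 0.493). Comp15982_c0, matched to the *B. rapa* gene, had 31 and 15 reads, a ratio of 0.491 (0.246 to 0.937). The 3 unigenes lay below 1 like CysP1 itself. With 1 read added per library, 2 of them passed the 2-fold difference, which 2.32% of all unigenes did downward. Comp15982_c0 then had a log2 ratio of -0.979 and was not called. Together they held 236 and 97 reads, a small number beside the CysP1 unigene, and their summed ratio was 0.417 (0.326 to 0.530). Their levels ranged from 4.43 to 12.6 RPKM in brown seeds and from 2.17 to 4.70 RPKM in yellow seeds.

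The δVPE comp47009_c0 (3104 bp) was the leading VPE of both libraries. Its assigned gene, GSBRNA2T00029527001, lies on chromosome A05 at 14274587 to 14276698 on the minus strand. The unigene was 992 bp longer than the span of that gene, so part of its reads may come from sequence beyond the annotated gene. It had 111282 reads in the brown and 60722 reads in the yellow library, and its RPKM ranked 16 and 38 among all unigenes. The brown level was 1.81 times the yellow level (1.79 to 1.82), a log2 ratio of -0.85. Of the unigenes with at least 1000 reads, 0.529% had a log2 ratio at or below it.

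CysP1 and the leading δVPE kept nearly the same proportion to each other. By RPKM, CysP1 stood 6.90 times above comp47009_c0 in brown seeds and 7.41 times above it in yellow seeds. The proportion differed 1.07-fold (1.06 to 1.09) between the libraries, an interval clear of 1 for counting error.

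A second set of δVPE unigenes came from the assembly component comp32152 and lay at a far lower level. Comp32152_c2 (1088 bp) was assigned to GSBRNA2T00070283001 on chromosome C04, at 30515685 to 30518182 on the minus strand. It measured 145 RPKM in brown seeds against 112 RPKM in yellow seeds, a ratio of 0.774 (0.737 to 0.813). Comp32152_c0 (309 bp) was assigned to the same gene, and its best protein entry was an *Arabidopsis* legumain. It measured 59.3 and 60.1 RPKM from 432 reads in each library, a ratio of 1.01 (0.886 to 1.16). The pieces of that gene therefore gave different ratios, with 2.45 times more RPKM on comp32152_c2 than on comp32152_c0 in brown seeds and 1.87 times more in yellow seeds. Comp32152_c1 (234 bp) was assigned to GSBRNA2T00074449001 on chromosome A01, at 17876349 to 17878817 on the minus strand. Its best protein entry was δVPE and its Swiss-Prot entry the γ-isozyme. It measured 52.2 and 44.3 RPKM, a ratio of 0.849 (0.713 to 1.01), which could not be told from 1 at this depth. The reads of the 3 unigenes summed gave a ratio of 0.802 (0.767 to 0.839), nearer to 1 than that of comp47009_c0.

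βVPE (comp50514_c0, 1881 bp) was assigned to GSBRNA2T00068620001 on chromosome A09, at 5418620 to 5421467 on the minus strand. It had 3034 reads in the brown and 4952 reads in the yellow library, or 68.4 and 113 RPKM. Its rank by RPKM among all unigenes was 1730 in brown and 869 in yellow seeds. Opposite to the leading δVPE, βVPE was higher in yellow seeds, with a ratio of 1.66 (1.58 to 1.73) and a log2 ratio of 0.73. Of the unigenes with at least 1000 reads, 1.69% had a log2 ratio at or above it.

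γVPE (comp50977_c0, 2487 bp) was assigned to GSBRNA2T00130664001 on chromosome C01, at 2730685 to 2733049 on the plus strand. The unigene was 122 bp longer than the span of that gene, so part of its reads may come from sequence beyond the annotated gene. It had 9073 reads in the brown and 8207 reads in the yellow library, or 155 and 142 RPKM. Its ratio of 0.918 (0.891 to 0.946) was closer to 1 than that of comp47009_c0 or of βVPE.

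αVPE was held by the neighbouring unigenes comp52698_c0 and comp52698_c1. Comp52698_c0 (526 bp) was assigned to GSBRNA2T00127224001 on chromosome C08, at 31770735 to 31773229 on the minus strand. It measured 70.8 RPKM in brown seeds against 102 RPKM in yellow seeds, a ratio of 1.45 (1.33 to 1.58). Comp52698_c1 (3512 bp) was assigned to GSBRNA2T00127223001, at 31767692 to 31770393 on the plus strand, 341 bp away from the gene of comp52698_c0. Its protein entries were αVPE but its best nucleotide entry was *Brassica rapa* EARLY FLOWERING 3, a gene of the circadian clock, and the unigene was longer than its assigned gene's span of 2702 bp. Its reads can therefore not be given to αVPE alone. It measured 50.7 and 60.8 RPKM, a ratio of 1.20 (1.15 to 1.25). Both unigenes thus had ratios above 1.

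**Figure D2:**
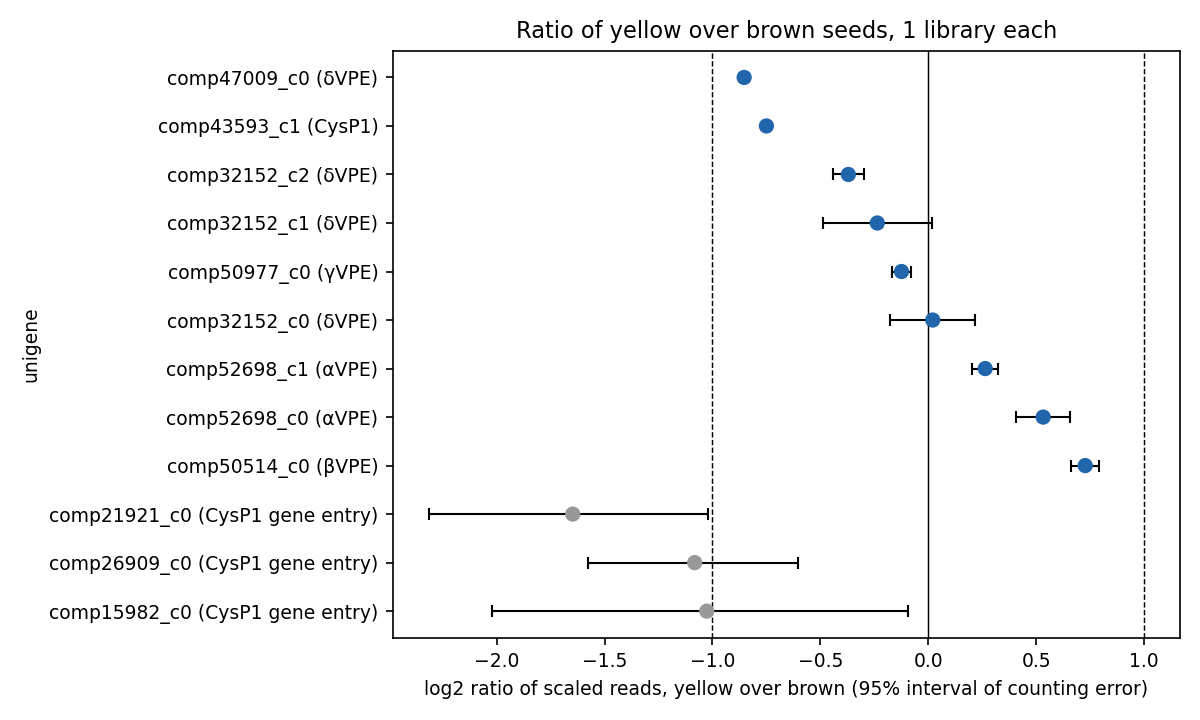
Log2 ratio of scaled reads with no read added, yellow over brown, with 95% intervals of counting error. Shown are the 9 members (blue) and 3 short CysP1 gene matches (grey), and dashed lines mark a 2-fold difference. CysP1 and comp47009_c0 lie at -0.75 and -0.85 and βVPE at 0.73.

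The counting interval was clear of 1 for 7 members, of which 3 were higher and 4 lower in yellow seeds, and included 1 for comp32152_c0 and comp32152_c1. Pieces of 1 gene also differed from each other in ratio. Among 195 genes with more than 1 unigene of at least 500 reads, the log2 ratios of a gene's unigenes spanned a median of 0.19 and, at the 90th percentile, 0.47. How much of that span counting error alone would give was not computed. Comp32152_c0 and comp32152_c2, assigned to the same gene, differed by 0.39 in log2 ratio. For this pair the proportion between the unigenes changed by a factor of 0.763 (0.660 to 0.881), an interval clear of 1 for counting error. The αVPE pair differed by 0.27 but was assigned to different genes, so that value is no spread within a gene. The spread between pieces of a gene is within the same pair of libraries and is no measure of the spread between seed samples.

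**Figure D3:**
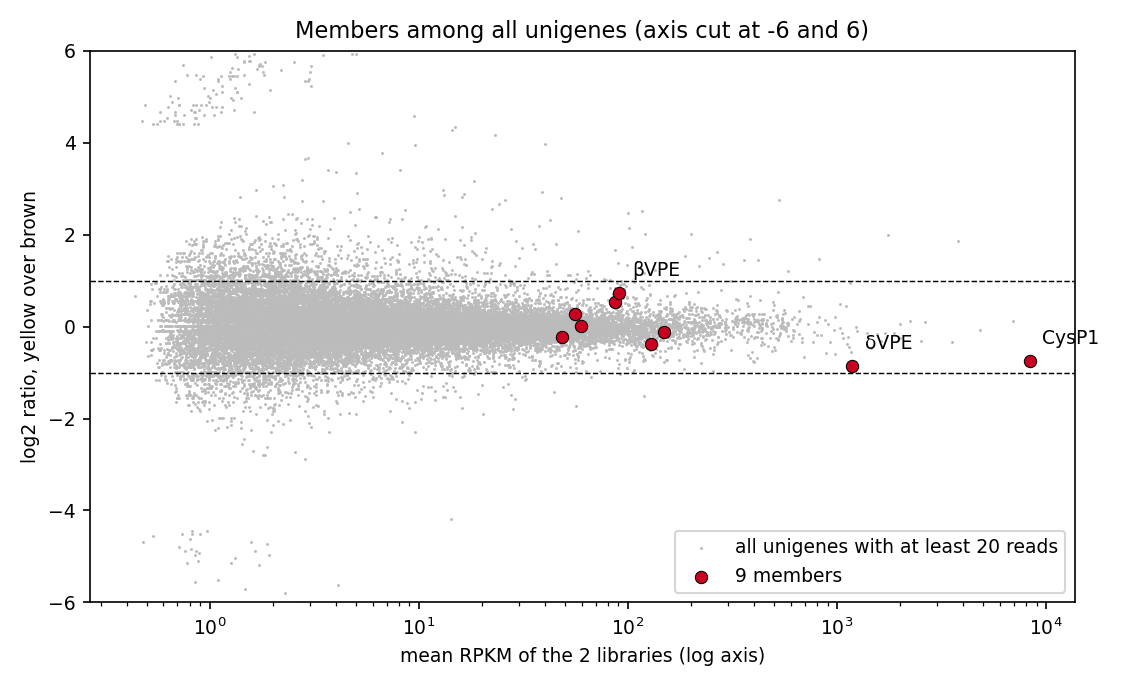
Log2 ratio, yellow over brown, against the mean RPKM of both libraries on a log axis, for all unigenes with at least 20 reads (grey, points beyond the axis not shown) and the 9 members (red); dashed lines mark a 2-fold difference. CysP1 and comp47009_c0 lie at the right of the plot at log2 ratios of -0.75 and -0.85, and βVPE lies at 0.73.

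The order of the members by RPKM was the same in both libraries for the first 3 places and differed for the other 6 members. CysP1, comp47009_c0 and γVPE held the first places in both. βVPE stood after comp32152_c2 and comp52698_c0 in brown seeds and stood ahead of both in yellow seeds. Comp52698_c1 was last of the 9 in brown seeds and in place 7 in yellow seeds. Of the 8 pairs of neighbours in the order, 3 had overlapping counting intervals in brown seeds, among them comp52698_c0 with βVPE. In yellow seeds 3 pairs overlapped as well, βVPE with comp32152_c2, comp32152_c2 with comp52698_c0, and comp52698_c1 with comp32152_c0, so the place of βVPE among these was not settled by the depth.

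The make-up of the VPE reads shifted away from δVPE. All VPE unigenes together held 132903 reads (0.564%) of the brown and 83609 reads (0.360%) of the yellow library. Their summed ratio was 0.638 (0.633 to 0.644), but without comp47009_c0 the remaining 7 unigenes gave 1.07 (1.05 to 1.09). The lower VPE sum of yellow seeds was thus held by 1 unigene. Comp47009_c0 made up 83.7% (83.5 to 83.9) of the VPE reads in brown and 72.6% (72.3 to 72.9) in yellow seeds. By RPKM, in which shorter unigenes weigh more, its share was 71.7% and 57.0%. Pieces of 1 gene, such as comp32152_c0 and comp32152_c2, are then each counted in full, so this share may be too low. βVPE made up 2.28% (2.20 to 2.36) of them in brown seeds against 5.92% (5.76 to 6.08) in yellow seeds. γVPE made up 6.83% and 9.82% of the VPE reads in brown and yellow seeds. The αVPE unigenes made up 3.82% and 7.44%, but most of these reads were on comp52698_c1, which cannot be given to αVPE alone. Comp52698_c0 by itself made up 0.661% (0.618 to 0.706) and 1.497% (1.416 to 1.582). Shares add up to a whole, so a lower share of δVPE raises the others even where their own level is unchanged.

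**Figure D4:**
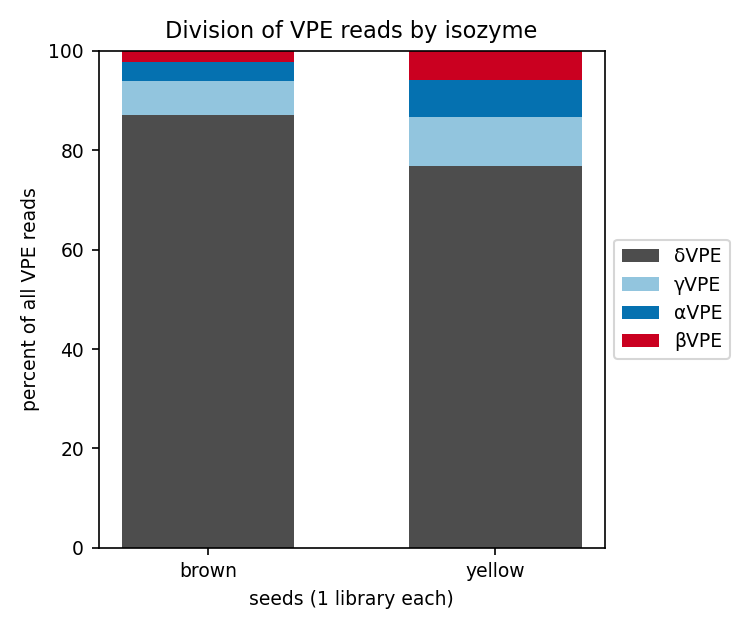
Percent of all VPE reads in δVPE, γVPE, αVPE and βVPE in brown and yellow seeds, 1 library each, stacked from 0; αVPE includes comp52698_c1. The δVPE share is 87.1% in brown and 76.8% in yellow seeds.

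Ratios between isozymes within a library do not depend on the library total. By RPKM, comp47009_c0 stood 22.2 times above βVPE in brown seeds and 7.43 times above it in yellow seeds, a 2.99-fold difference (2.86 to 3.13) between the libraries. Against γVPE, comp47009_c0 stood 9.83 times higher in brown and 5.93 times higher in yellow seeds, a 1.66-fold difference (1.61 to 1.71). The level of γVPE was 2.26 times that of βVPE in brown seeds and 1.25 times in yellow seeds, a 1.80-fold difference (1.71 to 1.91). The first of these differences is the product of the other two.

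The other papain-like cysteine proteinases had a median slightly below 0. Of 28 such unigenes with at least 20 reads, 3 were higher and 0 lower past 2-fold, beside 4.11% of all unigenes upward and 2.32% downward. With at least 100 reads 1 call was left, and 0 when the edgeR test with an assumed variation was required. Their median log2 ratio was -0.19 and 18 of the 28 lay below 0, beside 14654 of all 29239 unigenes. CEP1 (comp44742_c0), a KDEL-tailed cysteine endopeptidase of the same type as vignain, measured 1034 RPKM in brown seeds against 817 RPKM in yellow seeds, a ratio of 0.790 (0.778 to 0.803). Cathepsin B (comp52255_c1), a papain-like protease of the vacuole, measured 988 and 943 RPKM, a ratio of 0.954 (0.940 to 0.969). CysP1 exceeded CEP1 10.1 times by RPKM in brown seeds and 7.63 times in yellow seeds, so CysP1 lay further below 1 than CEP1, by a factor of 0.753 (0.740 to 0.766). Comp43874_c0, a probable cysteine proteinase of low level, had 183 reads in the brown and 378 reads in the yellow library, a ratio of 2.10 (1.75 to 2.51).

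Metacaspases and the other proteases of the legumain fold had 8 measured unigenes, with a median log2 ratio of -0.34. Of the 8, 0 passed the 2-fold difference, beside 6.44% of all unigenes. Below 0 lay 7, beside 14654 of all 29239 unigenes. Metacaspase-4 (comp47795_c0), a protease of plant cell death, measured 61.0 RPKM in brown seeds against 50.5 RPKM in yellow seeds, a ratio of 0.828 (0.777 to 0.882). Metacaspase-1 (comp50151_c0) had a ratio of 0.981 (0.906 to 1.06) and metacaspase-5 (comp42628_c0) one of 0.716 (0.620 to 0.827). Of the 26 measured cystatins, which block papain-like proteases, 2 were higher and 0 lower past 2-fold, beside the same 4.11% and 2.32% of all unigenes, with a median log2 ratio of -0.06. The 2 were comp42216_c0 and comp42216_c1, of 1 assembly component, at log2 ratios of 1.46 and 1.39. With at least 100 reads 1 of these calls was left, and 0 with the edgeR test. None of the 3 most abundant cystatins passed 2-fold. The cysteine proteinase inhibitor 5 unigene comp36477_c0 measured 201 and 252 RPKM, a ratio of 1.25 (1.20 to 1.31). Another inhibitor 5 unigene, comp9472_c0, measured 128 and 68.5 RPKM, a ratio of 0.534 (0.490 to 0.581). Inhibitor 1 (comp39415_c0) had a ratio of 0.878 (0.821 to 0.939).

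VPE mature storage proteins. Of 13 measured storage globulins and albumins, 11 were higher and 1 lower past 2-fold, beside 4.11% of all unigenes upward and 2.32% downward, with a median log2 ratio of 2.57. Summed over all 15 found, the level was 348 RPKM in brown seeds against 1538 RPKM in yellow seeds. Among the 15 vacuolar sorting receptors and retromer subunits, which carry storage proteins and proteases to the vacuole or recycle the receptors, 3 were higher and 0 lower, beside 4.11% and 2.32% of all unigenes, with a median log2 ratio of 0.16. The 3 were pieces of 1 gene for vacuolar-sorting receptor 1, GSBRNA2T00152832001 on chromosome C04. Its larger pieces comp50998_c1 and comp50998_c3 had ratios of 4.41 (3.51 to 5.58) and 3.78 (3.05 to 4.71). Another unigene of that assembly component, comp50998_c0, had a log2 ratio of only 0.16. The more abundant comp53908_c0, assigned to a different gene for vacuolar-sorting receptor 1, had a ratio of 0.951 (0.913 to 0.991). Aspartic proteinases of the vacuole had 1 of 9 unigenes higher and 0 lower, with a median of 0.26. That unigene was aspartic proteinase A2 (comp42948_c1), at 16.2 and 35.4 RPKM, a ratio of 2.19 (1.98 to 2.43). Protein disulfide-isomerases, which fold secreted proteins, had 1 of 26 higher and 0 lower, with a median of 0.06. With at least 100 reads 0 passed and the median was -0.08, so its sign depends on the read minimum.

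**Figure D5:**
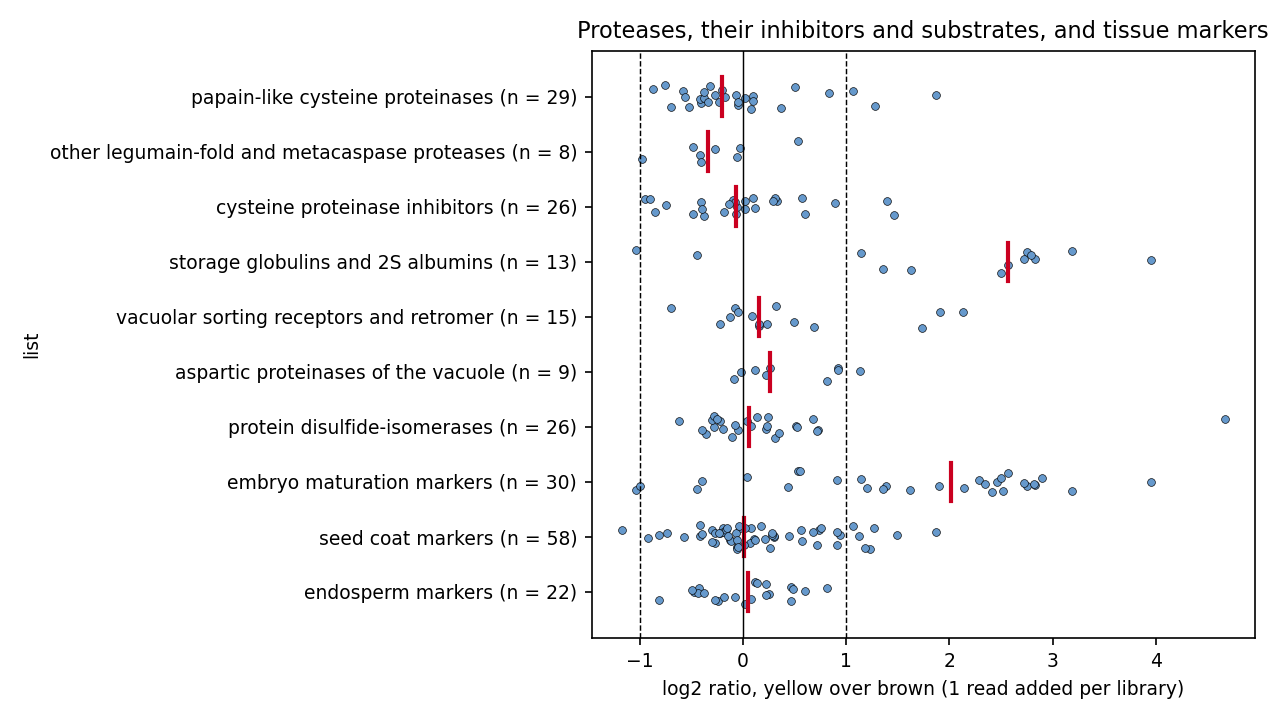
Log2 ratio, yellow over brown, of each unigene with at least 20 reads in 10 lists chosen by description (points) and the list median (red bar); dashed lines mark a 2-fold difference, and some unigenes stand in more than 1 list. Storage proteins and embryo markers lie mostly above 1, while papain-like proteinases have a median of -0.20.

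Among markers of the seed's tissues, those of the embryo differed most between the libraries. The median log2 ratio was 2.02 for embryo maturation markers, 0.01 for seed coat markers and 0.05 for endosperm markers. Of 30 measured embryo maturation markers, 21 were higher and 1 lower past 2-fold, beside 4.11% of all unigenes upward and 2.32% downward. With at least 100 reads 16 of these calls were left, and 17 with the edgeR test. The summed level of the markers was 580.5 RPKM in brown seeds against 2293 RPKM in yellow seeds over all 35 found. Of those 35, 4 stood at 0 reads in the brown library and 1 in the yellow library. This list shares storage proteins with the list of VPE substrates. Of 58 seed coat markers, 7 were higher and 1 lower, beside the same 4.11% and 2.32% of all unigenes. With at least 100 reads 3 of these calls were left, and 0 with the edgeR test. Summed RPKM was 4918 and 4786 over all 72 found, of which 4 and 6 stood at 0 reads. Many of the seed coat markers were found only by the gene name ARA12, a subtilisin-like protease. Without these, 6 of 36 were higher and 0 lower, with summed RPKM of 2021 and 2012 over these 36. Comp39910_c0, comp39910_c1 and comp39910_c2, each counted as higher, came from 1 assembly component, at log2 ratios of 1.07, 1.12 and 1.23. The gene name TT12 alone matched 28 unigenes, 19 of them measured, with a summed ratio of 1.04 (1.01 to 1.07). The list without ARA12 thus rests in large part on that name. Of 22 endosperm markers 0 passed in either direction, beside 6.44% of all unigenes. Their summed RPKM was 2084 and 2333 over all 33 found, of which 1 and 3 stood at 0 reads. Defining endosperm genes lay on both sides of 1. Summed ratios were 1.39 (1.37 to 1.41) for SWEET15, 1.52 (1.45 to 1.60) for SWEET11 and 1.17 (1.08 to 1.26) for HAIKU2. BHLH95 had one of 0.716 (0.656 to 0.782). Within the seed coat the defining genes did not move together. Anthocyanidin reductase, an enzyme of tannin synthesis in the endothelium, had a ratio of 0.760 (0.692 to 0.834) and peroxidase 36, a mucilage protein of the coat, one of 0.674 (0.647 to 0.701). The laccase TT10, which oxidizes tannins in the coat, had one of 1.16 (1.14 to 1.18). The part of tissue make-up or seed stage in the ratios of CysP1, δVPE and βVPE was not tested.

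Among unigenes with an assigned gene, those with the levels most like CysP1 and comp47009_c0 were also listed. Likeness was the distance between pairs of log2(RPKM + 1) values over the 2 libraries, so it is a description of 2 points. Nearest to CysP1 was comp46061_c0, the seed specific protein Bn15D12A, at a distance of 0.69, followed by comp42466_c0 at 1.15 and comp10001_c0 at 1.72. More distant were comp55348_c4, an elongation factor 1-alpha, at 2.37 and the lipid transfer-like protein comp37705_c0 at 2.41. Nearest to comp47009_c0 was comp53929_c0, described in Swiss-Prot as the Ras-related protein RABA5c, at 0.21, with 1387 RPKM in brown and 941 RPKM in yellow seeds. It was followed by comp55440_c1 at 0.29, a histone H2B unigene, comp49094_c0, at 0.34, the early nodulin-like protein comp41647_c0 at 0.39 and comp25858_c0 at 0.45.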

How the data were processed

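Polyadenylated RNA of whole seeds was sequenced from 1 library per line. After read filtering, the authors built 1 Trinity assembly from both libraries and mapped reads back to it, with an aligner and a counter not given in the sources used here. Deposited estimated counts of reads per unigene are unscaled and were rounded to whole numbers. The deposited RPKM values were made by the authors from these counts, the unigene length and a library total. Genes and coordinates are those that the authors assigned from the Darmor-bzh annotation, and no build is named in the table.

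Ratios used library totals, with exact intervals from SciPy 1.17.1 and log2 ratios after adding 1 read. With 1 library per line no p-value was taken as a result. TMM and an exact test with an assumed coefficient of variation of 0.2 came from edgeR 4.0.16 and median-ratio factors from DESeq2 1.42.0, as alternatives only. The ratio and interval code was tested on simulated data.

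The members and lists were chosen with earlier results of these data known, and list words were corrected after the table was seen. Named were every member and, of each list, the 3 unigenes with an assigned gene and the highest mean RPKM. Also named were each list's 2 highest and 2 lowest past 2-fold with at least 100 reads and an assigned gene. To these were added the 5 unigenes with an assigned gene nearest to CysP1 and the 5 nearest to comp47009_c0. Part of these and the marker genes are given, with some pieces of shared assembly components. Reads shared between near-identical A and C copies cannot be told apart, and strand was not stated for the counting.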

Additional observations from a re-analysis of the deposited data

How the results depend on the processing

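No paired analysis was possible because each line had 1 library, and for the same reason none was left out. Of 56 alternative log2 ratios of members, 2 lost or changed their sign. Both were of comp32152_c0, which went from 0.02 to 0 under median-ratio scaling and to -0.32 with the unigenes of its gene summed, the largest shift (0.34).

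Median-ratio scaling, which moved all unigenes by -0.02, gave -0.77 for CysP1, -0.87 for comp47009_c0 and -0.67 for the summed VPE reads. The summed VPE reads had a log2 ratio of 0.10 without comp47009_c0, the sign turning, and -0.69 without comp52698_c1, whose best nucleotide entry is another gene. Both of these alternatives were chosen after seeing the data. By RPKM, comp47009_c0 held 71.67% of the VPE level in brown and 56.99% in yellow seeds, since shorter unigenes then weigh more. With only unigenes of assigned genes in the total, CysP1 took 1.395% and 0.8369% of the libraries.

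Past 2-fold were 0 members and past 1.5-fold 3, beside 6.44% and 17.7% of all unigenes with at least 20 reads. Over all lists 43 unigenes passed 2-fold. Among these were 12 storage proteins and 22 embryo maturation markers, from lists that share unigenes. With at least 100 reads 28 passed 2-fold, and 22 did when the edgeR test with an assumed variation was required too. Past 1.5-fold were 78. The median of the protein disulfide-isomerases was 0.06, -0.08 with at least 100 reads and 0.18 with at least 5. The depth sets no limit on CysP1 or comp47009_c0, but the intervals of comp32152_c0 and comp32152_c1 include 1, and what seeds of other plants would give is unknown.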
